A study of Mus musculus with 15 samples.

Results

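The genes described here carry the insulin signal in fat cells and move the glucose transporter GLUT4 to the cell surface. The 10 members, chosen with earlier results of these data known, are Insr, Irs1, Irs2, Pik3r1, Akt1, Akt2, Foxo1, Tbc1d4, Slc2a4 and Trarg1. They are 10 of the 18194 genes with a probe set of a single symbol on the array, and each was read from the probe set that was brightest on average across the 15 arrays. All 10 lay above the intensity filter and so were among the 13174 genes tested.

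The samples were interscapular brown adipose tissue, the heat-producing fat between the shoulder blades, from 15 adult male wild-type C57BL/6N mice. All 3 groups were fed a high-fat diet, and each group held 5 animals with 1 array each. The first group (aFGFR1/KLB 41 to 45, called antibody below) received bFKB1, an antibody that switches on the complex of FGFR1 with its partner KLB, at 10 mg/kg in a lone intraperitoneal dose. The second (FGF21 36 to 40) received human FGF21, the hormone that signals through the same receptor pair, at 1 mg/kg 2 times a day, or 2 mg/kg per day, for 5 days. The third (control 31 to 35) was the control, and what these mice were injected with is not given in the labels. Tissue was taken at day 5 in all of them. The agents therefore differ in dose and in schedule as well as in kind.

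Insulin binds its receptor on the cell surface, and the receptor then phosphorylates the docking proteins IRS1 and IRS2. These recruit PI3-kinase, whose lipid product brings the kinase AKT to the membrane, where it is activated. AKT keeps FOXO1 out of the nucleus and switches off TBC1D4, a brake on the vesicles that store GLUT4, so that the transporter reaches the surface and glucose uptake rises. Brown fat is among the tissues that take up glucose strongly in response to insulin and to cold. The arrays measure transcripts and hold no reading of phosphorylation, of the site of a protein in the cell or of glucose uptake.

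Values are log2 of the deposited normalised intensity, and differences are in log2 units (mean of the first group minus mean of the second, ± standard error). A probe set's level depends on its own probes, so levels are compared between groups and not between genes. Median array intensities lay between 50.6 and 52.1 before the log. Ucp1, the uncoupling protein that defines brown fat, read 14.72 to 14.82 with the antibody, 14.55 to 14.76 with FGF21 and 14.52 to 14.67 in controls. The antibody and control values of Ucp1 did not overlap. The 8 brown adipocyte markers as a list were not level, with means of 12.23 to 12.54 in the antibody group, 12.01 to 12.57 with FGF21 and 11.79 to 12.07 in controls. Of the 8, 4 passed as higher and 1 as lower with the antibody, and 2 as higher and 1 as lower with FGF21. Over all tested genes, 2.69% passed as higher and 2.49% as lower with the antibody, and 2.64% and 3.68% with FGF21. Elovl3 read 11.77 to 12.65 with the antibody, 11.26 to 12.30 with FGF21 and 9.54 to 10.52 in controls. Dio2 read 9.81 to 10.67 with the antibody, 10.20 to 11.66 with FGF21 and 9.08 to 9.26 in controls, while Prdm16 read 8.25 to 8.54 with the antibody, 7.49 to 8.37 with FGF21 and 8.58 to 9.12 in controls. Skeletal muscle markers were uneven, with a list mean of 5.46 to 13.29 in the antibody group, 5.05 to 13.14 with FGF21 and 9.27 to 11.20 in controls. The 9 tested of 10 macrophage markers averaged 9.29 to 9.96 in the antibody group, 8.89 to 11.57 with FGF21 and 8.70 to 11.21 in controls, and FGF21 36 and control 34 held the highest values of their groups. These 2 arrays also had the highest fibroblast marker means, 12.57 in FGF21 36 and 12.80 in control 34, and the results for the 10 genes are also given without them. In a piece of tissue, fewer cells of a type and less RNA per cell cannot be told apart.

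**Figure D1:**
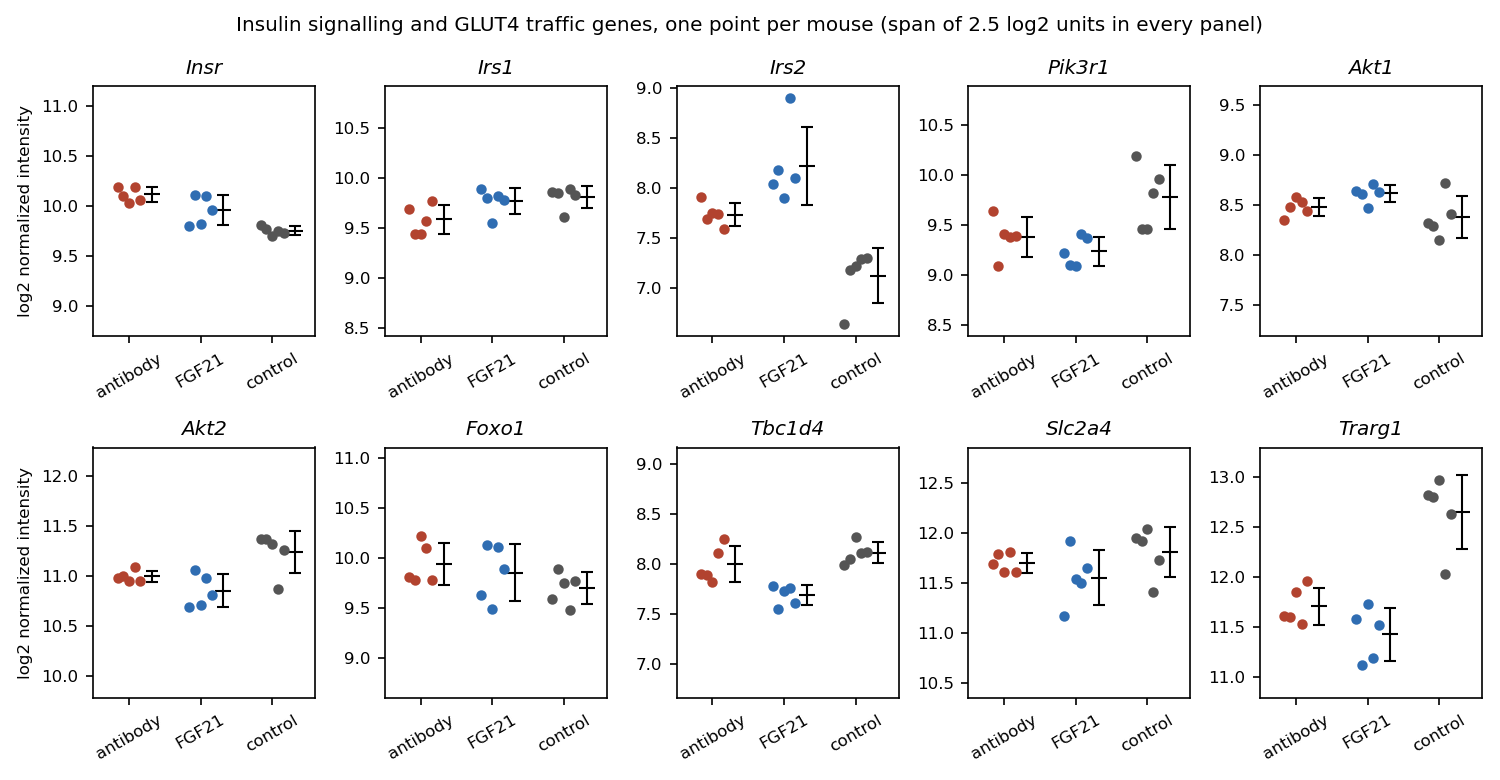
The log2 normalised intensity of each of the 10 genes is plotted for every mouse, antibody at the left, FGF21 in the middle and control at the right, with the group mean and SD (n = 5) beside the points. Trarg1 lies lower in both treated groups than in every control, Irs2 lies higher, and Slc2a4 overlaps between all 3 groups.

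Of the 10 genes, Insr rose and Trarg1 fell with the antibody, and the other 8 did not pass the test (limma, Benjamini-Hochberg adjusted p under 0.05). Of all tested genes 5.18% passed in this comparison, 2.69% as higher and 2.49% as lower. With FGF21, Irs2 rose and Pik3r1, Akt2, Tbc1d4 and Trarg1 fell, against 6.32% of all genes, 2.64% higher and 3.68% lower. The median difference of the 10 genes was −0.11 with the antibody and −0.15 with FGF21, where the median over all tested genes was −0.02 in both. In size without sign, the median was 0.24 with the antibody and 0.32 with FGF21, against 0.11 over all genes in each. Both comparisons use the same 5 controls. Between the treatments 0 of the 10 passed in limma, and 0.372% of all genes passed. At an unadjusted p under 0.05 there were 4 of the 10 and 13.5% of all genes.

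The 5 antibody values lay wholly above the 5 control values for Insr and Irs2 and wholly below them for Trarg1, and such separation occurred for 8.61% of all tested genes, 4.44% above and 4.17% below. With FGF21, Irs2 lay wholly above control, and Pik3r1, Tbc1d4 and Trarg1 lay wholly below, against 5.25% of all genes, 2.37% above and 2.88% below. The counts of called genes moved with single arrays. Without control 34, 4 of the 10 passed with the antibody and 6 with FGF21, where 8.65% of all genes passed with the antibody and 15.9% with FGF21. Without FGF21 38, control 31 or control 35, 3 passed with FGF21, against 5.27%, 4.21% or 4.68% of all genes. Without both control 34 and FGF21 36, the counts were 4 with the antibody, beside 12.4% of all genes, and 7 with FGF21, beside 16.2%. In that fit the antibody differences were 0.36 for Insr (limma adjusted p = 0.00395), 0.65 for Irs2 (0.0326), −0.34 for Akt2 (0.00708) and −1.09 for Trarg1 (0.00036). The FGF21 differences were 0.25 for Insr (0.0284), 1.18 for Irs2 (0.00139), −0.52 for Pik3r1 (0.044), 0.31 for Akt1 (0.0114), −0.44 for Akt2 (0.00152), −0.45 for Tbc1d4 (0.00716) and −1.41 for Trarg1 (5.3e-05).

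**Figure D2:**
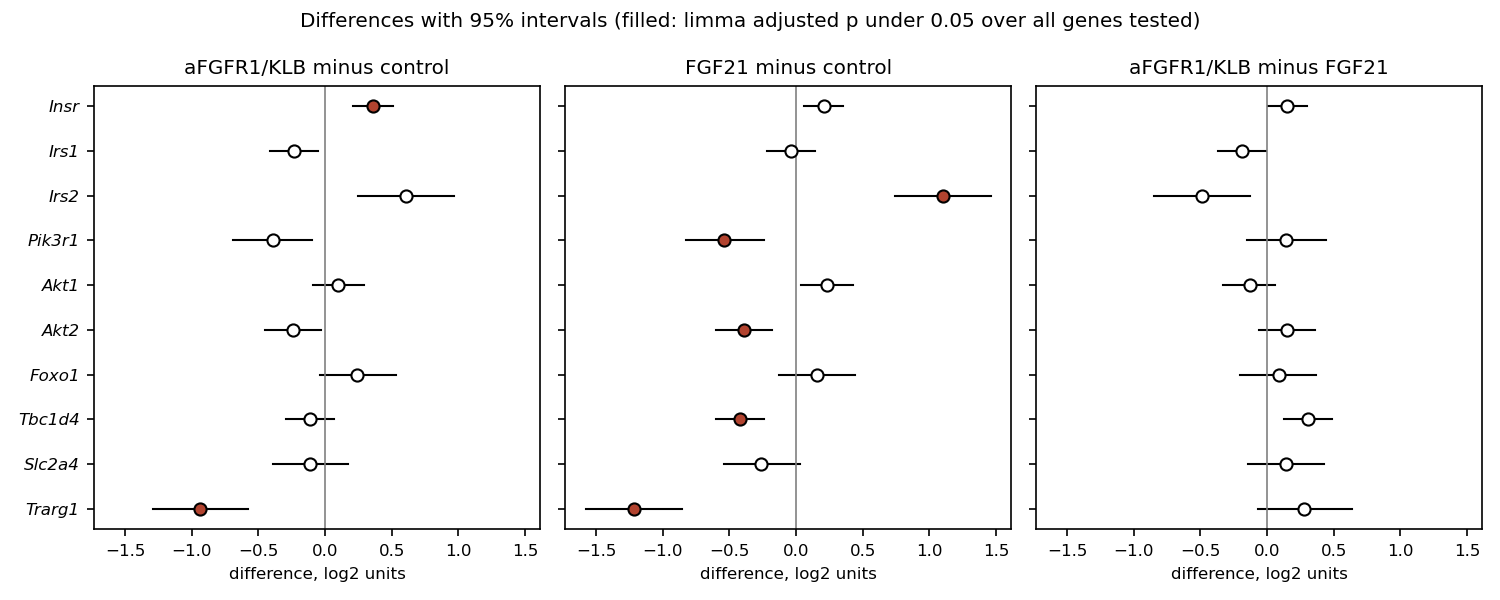
Each point is the difference in log2 units for 1 gene with its 95% interval, for antibody minus control, FGF21 minus control and antibody minus FGF21, and filled points passed the limma test. Trarg1 (−0.94 with the antibody, −1.22 with FGF21) is the lowest point in both comparisons with control, Irs2 (0.61 with the antibody, 1.10 with FGF21) is the highest, and no point is filled at the right.

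Insr encodes the insulin receptor, the start of the pathway. It read 10.19, 10.10, 10.03, 10.19 and 10.06 in antibody-treated mice, 9.80, 10.11, 9.82, 10.10 and 9.96 with FGF21, and 9.81, 9.77, 9.70, 9.75 and 9.73 in controls. Every antibody value was above every control value, while FGF21 36 lay inside the control range. The receptor transcript was higher with the antibody by 0.36 ± 0.07, or 1.28-fold (95% interval 0.21 to 0.51, limma adjusted p = 0.00889). With FGF21 the difference was 0.21 ± 0.07 (0.06 to 0.35, adjusted p = 0.0906), which did not pass. It passed without FGF21 36 (0.25, adjusted p = 0.0365). Insr has another pair of probe sets above the filter, both dim (means 5.33 and 5.07, filter 5.06), and neither passed in either comparison. Averaging all 3 gave 0.22 for the antibody (adjusted p = 0.121), so the call rests on the brightest of them.

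Irs1 and Irs2 encode the main docking proteins that link the receptor to PI3-kinase. Irs2 read 7.91, 7.69, 7.75, 7.74 and 7.59 with the antibody, 8.04, 8.18, 7.90, 8.90 and 8.10 with FGF21, and 6.64, 7.18, 7.22, 7.29 and 7.30 in controls. All 10 treated mice lay above all 5 controls. FGF21 39 was the highest sample and control 31 the lowest, each apart from the rest of its group. With FGF21 Irs2 rose by 1.10 ± 0.17, or 2.14-fold (0.74 to 1.46, limma adjusted p = 0.00187), and it ranked 79th by p among all tested genes. The difference ran from 0.93 to 1.18 when each array was left out in turn, and the call held in all 15 such fits. With the antibody Irs2 was at 0.61 ± 0.17 above control (0.25 to 0.97), with an adjusted p of 0.0501 over the genes tested, which did not pass. That adjusted p fell below the threshold in 4 of the 15 fits that left out 1 array, being 0.0449 without FGF21 36, 0.0473 without FGF21 38, 0.012 without FGF21 39 and 0.0391 without control 34.

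Irs1 did not follow Irs2. Its values were 9.69, 9.44, 9.44, 9.57 and 9.77 with the antibody, 9.89, 9.80, 9.55, 9.82 and 9.78 with FGF21, and 9.86, 9.85, 9.61, 9.89 and 9.83 in controls. The 3 groups overlapped. The antibody difference was −0.23 ± 0.08 (−0.41 to −0.05, limma adjusted p = 0.14) and the FGF21 difference −0.04 ± 0.08 (−0.22 to 0.14, adjusted p = 0.846). The interval for FGF21 leaves out a rise of the size measured for Irs2. Irs1 and Irs2 each have 1 probe set on the array.

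The windows around the start sites of these 2 docking genes are shown because the genes differed in the data while their promoters share a feature. Each runs from 250 bases before to 50 after the start, taken from RefSeq on build GRCm38.p6 and printed 5′ to 3′ on the gene's strand. Capitals mark the E-box CACGTG, a palindrome bound by basic helix-loop-helix factors, which occurs in 7.15% of the 32851 promoter windows of that length. Irs2 lies on the minus strand at chr8:11008880-11009179, and its E-box begins at −44 relative to the start. Irs1 lies on the minus strand at chr1:82291390-82291689, with an E-box at −115.
Irs2: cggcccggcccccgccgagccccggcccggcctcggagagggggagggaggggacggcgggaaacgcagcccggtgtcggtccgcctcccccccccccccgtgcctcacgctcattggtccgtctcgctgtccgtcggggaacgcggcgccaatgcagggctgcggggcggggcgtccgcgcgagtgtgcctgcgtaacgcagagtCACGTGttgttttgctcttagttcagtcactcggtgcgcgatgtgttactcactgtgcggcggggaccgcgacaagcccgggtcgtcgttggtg
Irs1: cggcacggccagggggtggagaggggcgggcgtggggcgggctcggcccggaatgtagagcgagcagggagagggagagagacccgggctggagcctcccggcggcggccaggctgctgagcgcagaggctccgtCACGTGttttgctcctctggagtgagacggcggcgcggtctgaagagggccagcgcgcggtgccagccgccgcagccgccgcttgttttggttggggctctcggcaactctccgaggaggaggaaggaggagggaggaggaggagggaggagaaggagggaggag
Both windows are rich in G and C, 72.0% for Irs2 and 71.3% for Irs1, where the median window held 52.7%. The Irs2 window holds 41 CpG dinucleotides and the Irs1 window 28, against a median of 7. The E-box letters themselves hold a CpG, and the share of windows with an E-box among those this rich in CpG was not counted.

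Pik3r1 encodes the p85α regulatory subunit of PI3-kinase, which holds the catalytic subunit and docks on the IRS proteins. It read 9.64, 9.09, 9.41, 9.38 and 9.39 with the antibody, 9.22, 9.10, 9.09, 9.41 and 9.37 with FGF21, and 10.19, 9.46, 9.46, 9.82 and 9.96 in controls. Every FGF21 value was below every control value, though control 32 and control 33 sat only just above the highest of them, and antibody 41 lay inside the control range. With FGF21 Pik3r1 fell by 0.54 on the log2 scale, or 1.45-fold (standard error 0.14, interval −0.83 to −0.24, limma adjusted p = 0.0323). The call was lost without FGF21 37 (adjusted p = 0.0743), FGF21 38 (0.0692), control 31 (0.0748) or control 35 (0.0817). With the antibody the difference was −0.39 ± 0.14 (−0.69 to −0.10, adjusted p = 0.121). The second brightest of its 4 probe sets, adjusted over all 22819 probe sets tested, fell in both comparisons, with a difference of −0.90 for the antibody (adjusted p = 0.0174) and −0.76 for FGF21 (adjusted p = 0.0342). The remaining 2 were between −0.24 and −0.44 and did not pass.

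Akt1 and Akt2 encode 2 isoforms of the kinase AKT, of which AKT2 is the one known for insulin's control of glucose uptake in fat and muscle. Akt2 read 10.98, 11.00, 10.95, 11.09 and 10.95 with the antibody, 10.69, 11.06, 10.71, 10.98 and 10.81 with FGF21, and 11.37, 11.37, 11.32, 10.87 and 11.26 in controls. Apart from control 34, all controls lay above all treated mice. Akt2 fell with FGF21 by 0.39 on the log2 scale, or 1.31-fold (standard error 0.10, interval −0.60 to −0.18, limma adjusted p = 0.029). Without control 34 the difference was −0.48 (adjusted p = 0.00107) and the antibody difference, −0.24 ± 0.10 over all arrays (−0.45 to −0.03, adjusted p = 0.178), was −0.34 (adjusted p = 0.0146).

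The FGF21 call on Akt2 was not stable. It ended without FGF21 36 (adjusted p = 0.0527), FGF21 38 (0.0647), FGF21 40 (0.0667), control 31 (0.0752), control 32 (0.0828), control 33 (0.0737) or control 35 (0.0619). Of the other probe sets of Akt2, 1 fell with FGF21 (−0.56, adjusted p = 0.0248) and 1 was at −0.15 (adjusted p = 0.544). With the antibody the first was at −0.31 and the second at 0.22, so the probe sets of this gene disagree in sign there.

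Akt1 ran the other way in its means. It read 8.35, 8.48, 8.58, 8.53 and 8.44 with the antibody, 8.64, 8.61, 8.47, 8.71 and 8.63 with FGF21, and 8.32, 8.29, 8.15, 8.72 and 8.41 in controls. Control 34, the lowest control for Akt2, was the highest for Akt1. The FGF21 difference was 0.23 ± 0.09 (0.04 to 0.43, limma adjusted p = 0.157), and it passed without control 34 (0.32, adjusted p = 0.0072). The antibody difference was 0.10 ± 0.09 (−0.09 to 0.29, adjusted p = 0.617). The other 3 probe sets of Akt1 did not pass and ranged from −0.04 to 0.17.

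Foxo1, the transcription factor that AKT holds in the cytoplasm and that acts on Irs2 and Insr in several tissues, read 9.81, 9.78, 10.22, 10.10 and 9.78 with the antibody, 9.63, 10.13, 9.49, 10.11 and 9.89 with FGF21, and 9.59, 9.89, 9.75, 9.48 and 9.77 in controls. The groups overlapped. The difference was 0.24 ± 0.13 with the antibody (−0.04 to 0.53, limma adjusted p = 0.351) and 0.16 ± 0.13 with FGF21 (−0.13 to 0.44, adjusted p = 0.578). Of 2 further Foxo1 probe sets above the filter, 1 was higher with the antibody by 0.57 (adjusted p = 0.0313) and at 0.32 with FGF21 (adjusted p = 0.228), and the other passed in neither. Another lay below the filter.

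Tbc1d4 encodes AS160, the GTPase-activating protein that holds GLUT4 vesicles inside the cell until AKT phosphorylates it. It read 7.90, 7.89, 7.82, 8.11 and 8.25 with the antibody, 7.78, 7.55, 7.73, 7.76 and 7.61 with FGF21, and 7.99, 8.05, 8.27, 8.11 and 8.12 in controls. The 5 FGF21 values lay below all 10 others, while antibody and control values overlapped. Tbc1d4 fell with FGF21 by 0.42 on the log2 scale, or 1.34-fold (standard error 0.08, interval −0.60 to −0.24, limma adjusted p = 0.00892), and the call held with each array left out in turn. Its other probe set fell by a like amount (−0.40, adjusted p = 0.0304). With the antibody the difference was −0.11 ± 0.08 (−0.29 to 0.07, adjusted p = 0.516).

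The promoter window of Tbc1d4, a gene lowered by FGF21, is shown beside those of the docking genes because it holds none of the motifs searched. It lies on the minus strand at chr14:101609142-101609441 (GRCm38.p6).
Tbc1d4: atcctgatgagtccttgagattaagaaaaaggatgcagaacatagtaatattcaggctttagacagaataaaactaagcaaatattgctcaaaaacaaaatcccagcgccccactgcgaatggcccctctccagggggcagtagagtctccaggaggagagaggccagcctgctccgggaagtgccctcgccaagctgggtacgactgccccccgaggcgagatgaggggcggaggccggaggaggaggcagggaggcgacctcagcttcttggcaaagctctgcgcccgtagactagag
The motifs, searched on both strands, were the forkhead core GTAAACA (in 3.65% of all windows), the nuclear receptor half-site AGGTCA (16.3%), the E-box (7.15%), the cyclic AMP response element TGACGTCA (1.79%) and the ETS motif CCGGAAGT (3.89%). The letters of the half-site occur within no other motif searched. RefSeq windows were matched for 7 of the 10 genes, 12 windows in all, and not for Insr, Slc2a4 and Trarg1. Of the 12, 3 held a match, namely Irs1, Irs2 and 1 of the 2 Akt1 windows, which has a forkhead core on the reverse strand at −161 and a half-site at −238. A match is a run of letters and not evidence of binding.

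Slc2a4 encodes GLUT4, the glucose transporter that insulin brings to the surface. It read 11.69, 11.79, 11.61, 11.81 and 11.61 with the antibody, 11.17, 11.92, 11.54, 11.50 and 11.65 with FGF21, and 11.95, 11.92, 12.04, 11.41 and 11.73 in controls. The groups overlapped, and the lowest values were FGF21 36 and control 34. The difference was −0.11 ± 0.13 with the antibody (−0.39 to 0.17, limma adjusted p = 0.717) and −0.26 ± 0.13 with FGF21 (−0.54 to 0.03, adjusted p = 0.307). Neither interval leaves out 0. Without those 2 arrays the difference was −0.21 with the antibody (adjusted p = 0.151) and −0.26 with FGF21 (adjusted p = 0.0845). Leaving out 1 array gave −0.21 to −0.05 with the antibody and −0.36 to −0.16 with FGF21. The antibody value moved most without control 34 (−0.21, adjusted p = 0.322) and without control 33 (−0.05, adjusted p = 0.875) or control 31 (−0.07, adjusted p = 0.844). The FGF21 value moved most without control 34 (−0.36, adjusted p = 0.0574) and without FGF21 36 (−0.16, adjusted p = 0.536). The second Slc2a4 probe set gave −0.04 with the antibody and −0.24 with FGF21, and did not pass in either.

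Trarg1 encodes a membrane protein of GLUT4 vesicles, known in fat cells as a regulator of GLUT4 traffic. It read 11.61, 11.60, 11.85, 11.53 and 11.96 with the antibody, 11.58, 11.12, 11.73, 11.19 and 11.52 with FGF21, and 12.82, 12.80, 12.97, 12.03 and 12.63 in controls. All 10 treated mice lay below all 5 controls, and control 34 was the lowest control. Trarg1 fell by 0.94 on the log2 scale with the antibody, or 1.92-fold (standard error 0.17, interval −1.29 to −0.58, limma adjusted p = 0.00639), and by 1.22 with FGF21, or 2.33-fold (standard error 0.17, interval −1.58 to −0.86, adjusted p = 0.000881). It ranked 109th by p among all tested genes with the antibody and 44th with FGF21. Leaving out each array in turn kept the difference between −1.09 and −0.86 with the antibody and between −1.38 and −1.14 with FGF21, and both calls held in all 15 fits. Trarg1 has 1 probe set, so no second reading of it was available on these arrays.

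**Figure D3:**
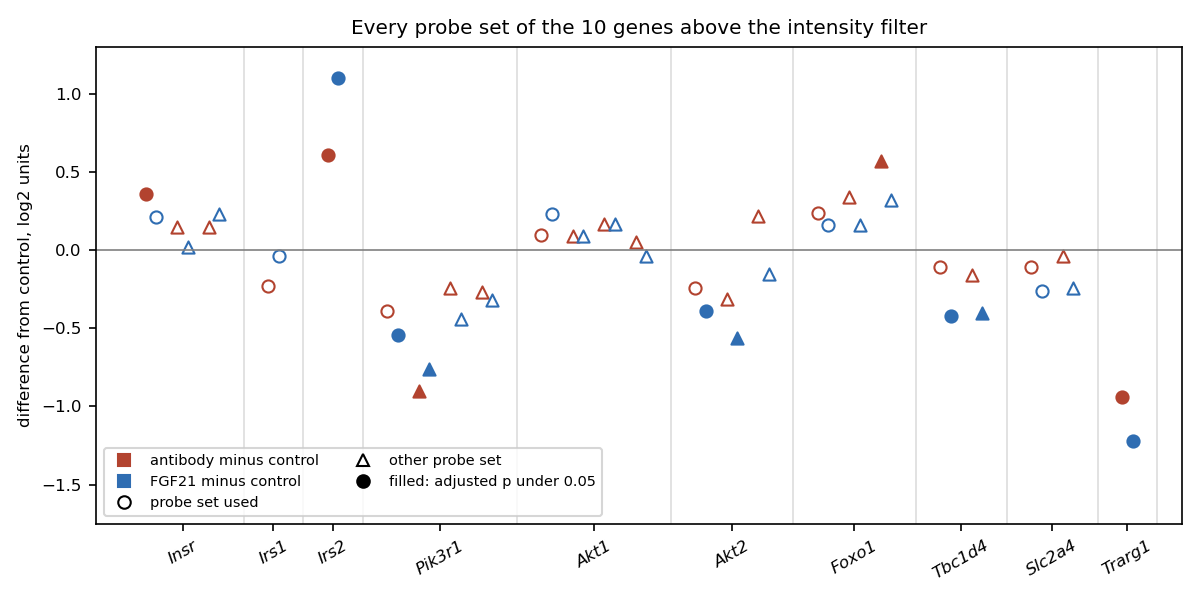
The difference from control in log2 units is plotted for every probe set of the 10 genes above the filter, circles for the probe set used and triangles for the others, filled where the adjusted p over all probe sets was under 0.05. The Tbc1d4 probe sets lie together (−0.42 and −0.40 with FGF21) while those of Akt2 spread (−0.39, −0.56 and −0.15), and Irs2 with the antibody is filled because its adjusted p was 0.0498 over probe sets and 0.0501 over genes.

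The comparison of the 2 agents, which differ in dose and schedule, gave 1 gene among the 10 whose groups did not overlap, where 4.69% of all genes were so separated, 2.39% higher with the antibody and 2.3% lower. That gene was Tbc1d4, higher in every antibody-treated than in every FGF21-treated mouse, by 0.31 ± 0.08 (0.13 to 0.49, limma adjusted p = 0.132). For Irs2 the difference, antibody minus FGF21, was −0.49 ± 0.17 (−0.85 to −0.13, adjusted p = 0.237). Insr was at 0.15 (0.01 to 0.30, adjusted p = 0.355) and Irs1 at −0.19 (−0.37 to −0.01, adjusted p = 0.357). The intervals of these 4 genes leave out 0, but none of them passed over all genes. For Trarg1 the difference was 0.28 (−0.07 to 0.64, adjusted p = 0.463), which includes both no difference and a difference as large as 0.64. For Pik3r1, Akt1, Akt2, Foxo1 and Slc2a4 the differences lay between −0.13 and 0.15, with intervals that reached −0.33 and 0.44 at most.

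Some of the 10 genes moved together from mouse to mouse inside the groups. Taking each sample's deviation from its group mean over the 15 samples, as a description, Akt2 and Slc2a4 correlated at 0.83, while Akt1 and Trarg1 correlated at −0.76 and Insr and Trarg1 at −0.58. The same deviations of Slc2a4 correlated at −0.94 with the mean of the macrophage markers and at −0.95 with that of the fibroblast markers, and those of Akt2 at −0.81 and −0.85. Slc2a4 and Akt2 were thus low in the samples where these markers were high, above all FGF21 36 and control 34. Akt1 went the other way, at 0.69 and 0.66. For Trarg1 the values were −0.27 and −0.33, and for Irs2 0.06 and 0.12. Trarg1 varied more with other lists, at −0.78 with the endothelial and 0.72 with the adipocyte marker mean. The endothelial mean spanned 8.30 to 8.59 with the antibody, 8.39 to 8.76 with FGF21 and 8.22 to 8.59 in controls. The adipocyte mean spanned 12.05 to 12.59 with the antibody, 12.13 to 12.72 with FGF21 and 12.29 to 12.69 in controls. Over all samples Lep read 8.06 to 11.92 and Retn 9.24 to 11.83, so these genes moved that mean most. Cidec read 12.04 to 12.81, Pparg 11.19 to 11.98 and Lipe 12.24 to 13.07. Adipoq (14.06 to 14.23) and Fabp4 (14.92 to 15.03) were nearly flat. Insr stood at 0.72 with the brown adipocyte and 0.66 with the endothelial mean and at −0.57 with the adipocyte mean, and Slc2a4 at 0.78 and Akt2 at 0.76 with the brown adipocyte mean. The part of these lists in the group differences was not tested.

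With the macrophage marker mean as a covariate, the FGF21 difference was −0.30 for Akt2 (limma adjusted p = 0.0129) and −0.11 for Slc2a4 (adjusted p = 0.286), against −0.39 and −0.26 without it. Trarg1 stayed at −1.17 and Irs2 at 1.09 with FGF21 (adjusted p = 0.000751 and 0.00175). Over all genes 1704 passed with the antibody in that fit, against 682 without the covariate, and 1389 with FGF21, against 833. Irs2 with the antibody passed in that fit at an unchanged 0.61 (adjusted p = 0.0299). Insr with FGF21, at 0.24, also passed there (adjusted p = 0.0357), as did Akt2 with the antibody at −0.25 (adjusted p = 0.022). With the skeletal muscle mean as a covariate the calls of all 7 results named above, 2 with the antibody and 5 with FGF21, were kept. Irs1 deviated with the muscle markers at 0.62, Trarg1 at 0.13 and Slc2a4 at −0.19. The part of these other cells in the group differences was not tested beyond these fits.

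**Figure D4:**
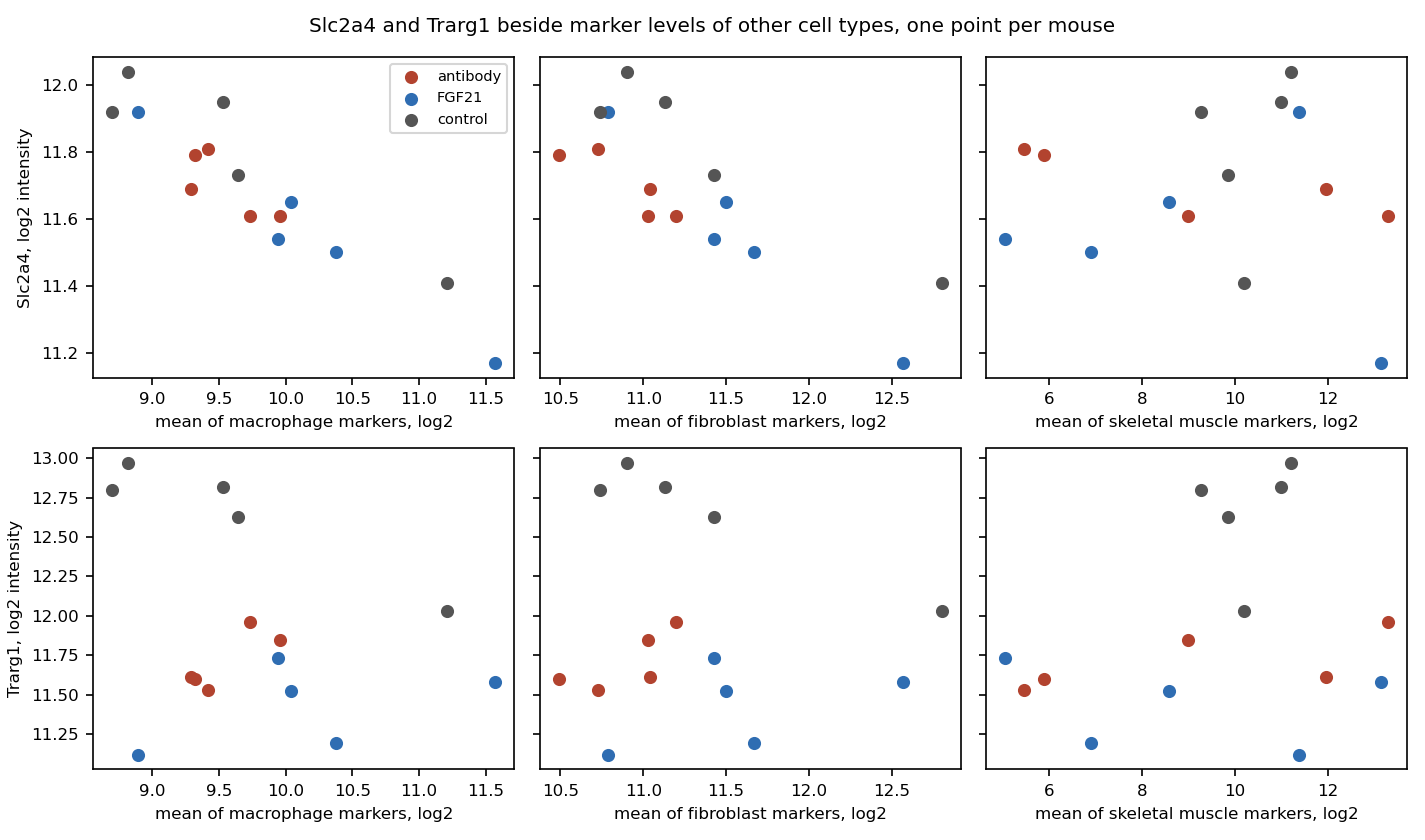
Slc2a4 (top) and Trarg1 (bottom) in log2 intensity are plotted against the mean log2 level of macrophage, fibroblast and skeletal muscle markers, 1 point per mouse. Slc2a4 lies along a falling line in all groups for macrophage and fibroblast markers (−0.94 and −0.95 within groups), while the Trarg1 points of treated mice lie below the controls along the whole range.

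Genes whose pattern over the 15 samples was most like that of each called gene were ranked by Pearson's r. Trarg1 was most like Pygb, the brain form of glycogen phosphorylase (0.97), Tmem184b (0.96) and Epb41l2 (0.96), and the deviations within groups correlated at 0.88, 0.80 and 0.87. Irs2 was most like Spry4, an inhibitor of the Ras to ERK cascade (0.93), Dlc1 (0.91) and Nolc1 (0.91), with 0.71, 0.57 and 0.65 within groups. Insr was most like Tesc (0.95), the thioesterase Acot8 (0.93) and Maco1 (0.93). Akt2 was most like Tmem223 (0.96), Elmod3 (0.93) and the mitochondrial ribosomal gene Mrps24 (0.93), and these stayed at 0.92, 0.88 and 0.93 within groups. For Pik3r1 the highest were B3glct (0.87), Enox2 (0.84) and Afap1 (0.81), and for Tbc1d4 they were Zyg11b (0.85), Slc22a17 (0.84) and Tsc22d4 (0.84). All of these share the same 15 arrays and were picked for the highest r. The r used for the ranking includes the differences between groups, which the values within groups leave out.

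The rest of the pathway was read from 9 lists that hold 126 genes besides the 10, of which 113 were tested. With the antibody 9 of the 113 were higher and 3 lower, 10.6% in all beside 5.18% of all genes. With FGF21 6 were higher and 8 lower, 12.4% beside 6.32%. Between the antibody and FGF21 the limma test called 0 of the 113, and 17 were under 0.05 before adjustment, as were 13.5% of all genes. These lists were chosen with results of these arrays known, and the medians of most lists were close to the −0.02 of all genes. The counts of each list below stand beside 2.69% of all genes higher and 2.49% lower with the antibody. With FGF21 these shares were 2.64% and 3.68%.

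Many of these pathway calls depended on how the arrays were scaled. Centring each array on ribosomal protein genes kept 2 of the 12 antibody calls, on Ccng2 and Klf15, and 3 of the 14 FGF21 calls, on Ccng2, Klf15 and Slc2a1. Over all tested genes this centring took the calls from 682 to 145 with the antibody and from 833 to 179 with FGF21. The other calls that held with each array left out in turn ended there. For the antibody the limma adjusted p was 0.133 for Pdpk1 (difference 0.48, against 0.39 before) and 0.0513 for Trib3 (0.91, against 0.81). For FGF21 it was 0.136 for Ralgapa2, 0.329 for Rhoq, 0.229 for Trib1, 0.227 for Cebpa and 0.0671 for Srebf1. Their FGF21 differences, in the same order, were −0.59, −0.35, 0.52, −0.46 and −0.56, against −0.60, −0.36, 0.51, −0.46 and −0.56 before. Centring on the array median took the calls over all genes from 682 to 419 with the antibody and from 833 to 538 with FGF21. It kept 5 of the 12 antibody calls, on Ccng2, Grb14, Klf15, Pdpk1 and Trib3. It kept 8 of the 14 FGF21 calls, on Ccng2, Cebpa, Gsk3b, Klf15, Ralgapa2, Rhoq, Slc2a1 and Srebf1. Among the calls it ended were Pde3b in both comparisons (adjusted p = 0.0937 with the antibody and 0.118 with FGF21), and Pdpk1 (0.0854) and Trib1 (0.0614) with FGF21.

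Without control 34 and FGF21 36 all 12 antibody and all 14 FGF21 pathway calls held. In that fit 12.4% of all genes passed with the antibody, 16.2% with FGF21 and 1.83% between the agents. Over all arrays these shares were 5.18%, 6.32% and 0.372%. Among the 20 genes called in at least 1 comparison, others passed without the 2 arrays where they had not before. With the antibody these were Exoc7 (−0.21, limma adjusted p = 0.0456), Rala (−0.36, adjusted p = 0.0113) and Slc2a1 (0.69, adjusted p = 0.00304). With FGF21 they were Trib3 (0.53, adjusted p = 0.0243) and Ppargc1a (0.72, adjusted p = 0.00527). Between the agents they were Rhoq (0.27, adjusted p = 0.0202), Stxbp4 (0.36, adjusted p = 0.0438) and Trib1 (−0.52, adjusted p = 0.0129). The other Rala probe set had the opposite sign with the antibody over all arrays (0.21) and did not pass.

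Among receptors and ligands of the insulin and IGF family, 0 of the 5 genes other than Insr passed in either comparison. At an unadjusted p under 0.05 there were 0 with the antibody and 1 with FGF21. Over all tested genes, 19.4% with the antibody and 20.4% with FGF21 were under 0.05 before adjustment. Igf1r, the receptor most similar to the insulin receptor, was at 0.07 with the antibody (limma adjusted p = 0.799) and 0.28 with FGF21 (adjusted p = 0.135). Of 11 adapters and substrates besides Irs1 and Irs2, 0 passed with the antibody (2 at an unadjusted p under 0.05) and 1 fell with FGF21, the docking protein gene Gab1 (−0.29, adjusted p = 0.0482). That call ended in 12 of the 15 fits that left out 1 array, and the other Gab1 probe set did not pass.

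Of 7 other genes for PI3-kinase subunits and PDK1, 2 rose with the antibody and 1 with FGF21. Pdpk1, which encodes the kinase PDK1 that activates AKT, read 9.82, 9.94, 9.77, 9.88 and 9.89 with the antibody, 9.67, 9.84, 10.01, 9.63 and 9.86 with FGF21, and 9.55, 9.52, 9.30, 9.42 and 9.57 in controls. All treated mice lay above all controls. It was higher by 0.39 ± 0.08 with the antibody (limma adjusted p = 0.0113), a call that held in all 15 fits, and by 0.33 ± 0.08 with FGF21 (adjusted p = 0.0204), a call that ended without FGF21 40 or control 33 (at most 0.0536). Its other probe set, at 0.21 with the antibody and 0.22 with FGF21, did not pass. Pik3ca, a catalytic subunit, was higher with the antibody by 0.19 (adjusted p = 0.0463), and this ended in 13 of the 15 fits. Its 4 other probe sets were at 0.06, 0.21, 0.29 and 0.25 with the antibody, and 1 of them passed.

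Of 14 other genes of AKT, the mTOR complexes and AKT substrates, 2 rose with the antibody, and 1 rose and 1 fell with FGF21. Pde3b, the phosphodiesterase through which insulin lowers cyclic AMP and restrains lipolysis in fat cells, was higher by 0.39 ± 0.10 with the antibody (limma adjusted p = 0.0362) and by 0.40 ± 0.10 with FGF21 (adjusted p = 0.029). Each of these calls ended in 6 of the 15 fits. Akt1s1, which encodes the mTORC1 inhibitor PRAS40, was higher with the antibody (0.23, adjusted p = 0.0431) and lost in 12 fits. Its 2 other probe sets, at 0.16 and 0.04, did not pass. Gsk3b, a kinase that AKT inhibits, was lower with FGF21 (−0.23, adjusted p = 0.0303), lost in 6 of the 15 fits. Its 5 other probe sets were at −0.16, −0.33, −0.26, −0.21 and −0.04 with FGF21, and 1 of them passed.

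Among 14 tested brakes on insulin signalling, 1 rose and 1 fell with the antibody, and 0 passed with FGF21. At an unadjusted p under 0.05 there were 3 with FGF21, beside 20.4% of all genes. Trib3, a pseudokinase that binds AKT, read 7.60, 7.87, 8.27, 7.55 and 7.83 with the antibody, 7.13, 7.64, 7.80, 7.55 and 7.55 with FGF21, and 7.42, 6.97, 6.94, 6.65 and 7.08 in controls. All antibody values exceeded all control values, whereas FGF21 36 fell among the controls. It rose by 0.81 ± 0.16 with the antibody (limma adjusted p = 0.011), in all 15 fits and also on its other probe set (0.64), and was at 0.52 ± 0.16 with FGF21 (adjusted p = 0.0676). Grb14, an adapter that inhibits the insulin receptor's kinase, read 10.10, 10.66, 10.55, 10.75 and 10.60 with the antibody, 10.60, 10.97, 10.83, 11.08 and 10.99 with FGF21, and 11.01, 11.25, 11.25, 11.00 and 10.92 in controls. The antibody group lay wholly below the controls. The fall was −0.55 ± 0.12 (adjusted p = 0.0184), lost without control 32 (0.0526), and with FGF21 the difference was −0.19 (adjusted p = 0.434).

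Of 30 other genes for GLUT4 vesicles and their traffic, 1 rose and 1 fell with the antibody, and 0 rose and 4 fell with FGF21. Over all tested genes 2.69% rose and 2.49% fell with the antibody, and 2.64% rose and 3.68% fell with FGF21. The list median was −0.04 with the antibody and −0.02 with FGF21. Ralgapa2, a subunit of the complex that restrains the vesicle-tethering GTPase RalA, read 9.42, 9.58, 9.53, 9.57 and 9.51 with the antibody, 9.00, 9.43, 9.41, 9.39 and 9.36 with FGF21, and 9.92, 10.09, 10.07, 9.56 and 9.97 in controls. The FGF21 values were all below the controls, and antibody 42 and antibody 44 overlapped with control 34. It fell with FGF21 by 0.60 on the log2 scale (standard error 0.10, limma adjusted p = 0.00342), a call kept in all 15 fits. With the antibody it fell by 0.40 (adjusted p = 0.036), lost in 10.

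Rhoq, which encodes the small GTPase TC10 of the exocyst pathway to the surface, read 12.72, 12.83, 12.71, 12.77 and 12.85 with the antibody, 12.30, 12.46, 12.57, 12.42 and 12.57 with FGF21, and 12.84, 12.92, 12.87, 12.65 and 12.86 in controls. The FGF21 group lay below both others without overlap. Rhoq fell with FGF21 by 0.36 on the log2 scale (standard error 0.07, limma adjusted p = 0.00576), in all 15 fits, and was at −0.05 with the antibody (adjusted p = 0.757). The difference between the agents was 0.31 ± 0.07 (adjusted p = 0.0558). The exocyst gene Exoc7 (−0.28, adjusted p = 0.0303) and Rala (−0.34, adjusted p = 0.0347) were lower with FGF21, each lost in 6 of the 15 fits. The other Rala probe set was at −0.18 with FGF21 and at 0.21 with the antibody, and passed in neither. Stxbp4, a syntaxin-binding gene, was higher with the antibody (0.30, adjusted p = 0.0453) and lost in 12 of the 15 fits. Its 3 other probe sets differed in sign with the antibody (0.40, −0.08 and 0.24), and 1 of them passed.

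Of 4 tested glucose transporter genes besides Slc2a4, 1 rose with FGF21 and 0 passed with the antibody. At an unadjusted p under 0.05 there was 1 with the antibody, beside 19.4% of all genes. Slc2a1 encodes GLUT1, the transporter of basal uptake. It read 7.81, 7.77, 7.92, 7.61 and 7.97 with the antibody, 8.44, 8.03, 8.50, 8.26 and 8.28 with FGF21, and 7.46, 7.04, 6.86, 8.02 and 7.14 in controls. Every FGF21 value was above every other value, and control 34 lay above the 4 other controls and all antibody values. With FGF21 Slc2a1 rose by 1.00 ± 0.17 (limma adjusted p = 0.00398), in all 15 fits and on its other 2 probe sets (1.01 and 0.37). With the antibody it was at 0.51 ± 0.17 (adjusted p = 0.107), and at 0.61 with ribosomal centring (adjusted p = 0.0427). The difference between the agents was −0.49 (adjusted p = 0.257).

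Of 17 other FOXO factors and known FOXO targets, 1 rose with the antibody and 2 with FGF21. Ccng2, which encodes cyclin G2, a FOXO target linked to cell cycle arrest, read 10.23, 10.32, 10.12, 10.25 and 10.11 with the antibody, 9.89, 9.98, 10.48, 10.40 and 10.26 with FGF21, and 9.68, 9.36, 9.46, 9.75 and 9.62 in controls. All 10 treated mice exceeded all controls. The difference was 0.63 ± 0.11 in each comparison (limma adjusted p = 0.00626 with the antibody and 0.0046 with FGF21), in all 15 fits. Trib1, a pseudokinase related to Trib3, rose with FGF21 (0.51, adjusted p = 0.0139) and was at 0.05 with the antibody. Its other probe set did not pass.

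Of 11 factors reported to act on Slc2a4, 2 rose and 1 fell with the antibody, and 1 rose and 2 fell with FGF21, while Slc2a4 itself did not pass. Klf15, a zinc finger factor that raises Slc2a4 in cultured fat cells, read 9.04, 8.97, 8.92, 9.35 and 8.84 with the antibody, 8.68, 9.49, 8.71, 9.05 and 9.17 with FGF21, and 8.05, 7.67, 7.93, 7.52 and 8.10 in controls. The lowest treated value was well above the highest control. Klf15 rose by 1.17 ± 0.16 in each comparison (limma adjusted p = 0.00117 with the antibody and 0.000868 with FGF21), in all 15 fits. Cebpa, a factor of fat cell differentiation, fell by 0.43 on the log2 scale with the antibody (adjusted p = 0.0241, lost in 7 of the 15 fits) and fell by 0.46 with FGF21 (adjusted p = 0.0138, kept in all 15). Srebf1, a factor that insulin induces and that drives fatty acid synthesis, read 10.94 to 11.48 with the antibody, 10.59 to 11.18 with FGF21 and 11.31 to 11.48 in controls. It fell by 0.56 with FGF21 (standard error 0.11, adjusted p = 0.00892) and was at −0.31 with the antibody (adjusted p = 0.137). Ppargc1a, the coactivator PGC-1α, was higher with the antibody by 0.60 (adjusted p = 0.0486), lost in 11 of the 15 fits, and was at 0.57 with FGF21 (adjusted p = 0.0559). Its 4 other probe sets all passed with the antibody (0.70, 0.61, 0.50 and 0.54). With FGF21 they were at 0.51, 0.30, 0.43 and 0.43, and 1 of them passed.

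**Figure D5:**
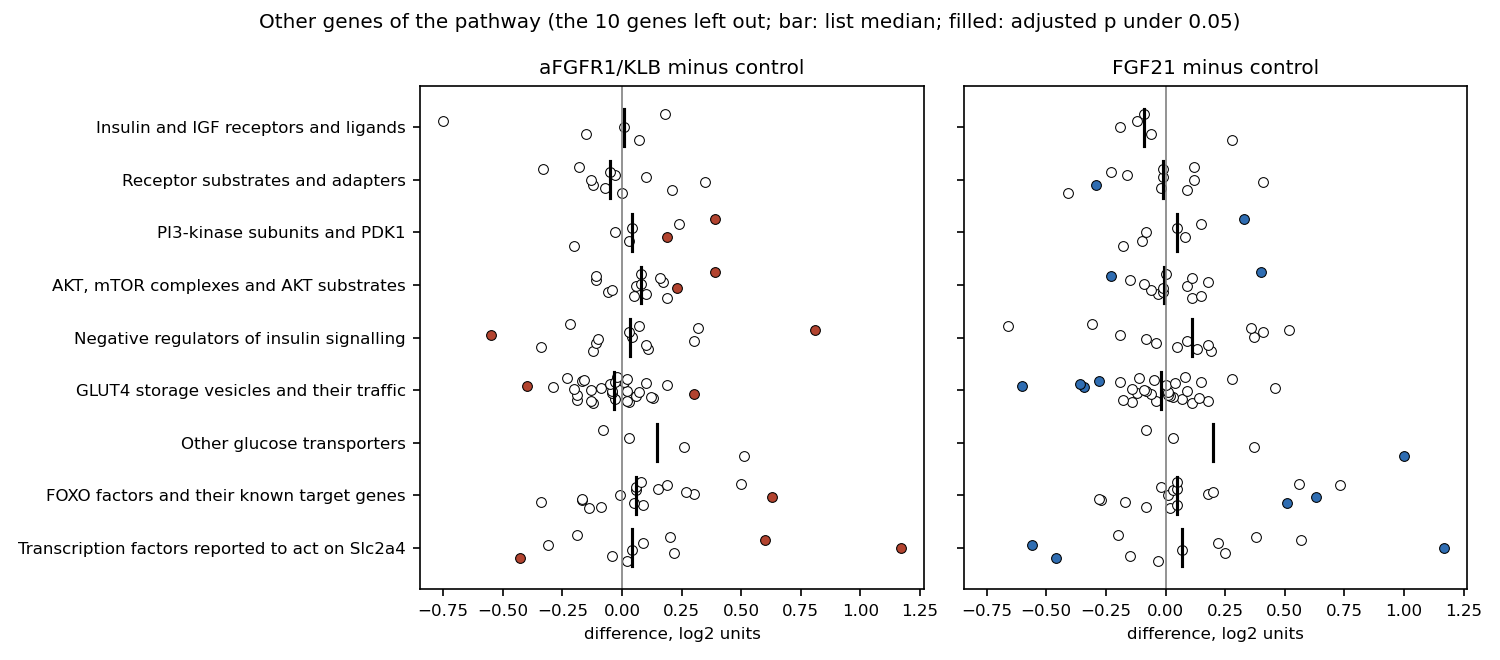
Each circle is the difference from control in log2 units of 1 pathway gene other than the 10, by list, for the antibody at the left and FGF21 at the right, with the list median as a bar and genes that passed filled. Most circles lie around 0 with a few apart, such as Klf15 (1.17 in both) and Slc2a1 (1.00 with FGF21), and the filled circles in the GLUT4 traffic list with FGF21 are all below 0.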

How the data were processed

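RNA of 15 brown fat samples was read on 1 array each. The deposited values are normalised intensities on a linear scale (5.58 to 34652), made by the authors with RMA per the submitters' processing notes, which name no version. Array files before normalisation were not used here. Groups were taken from the sample titles. Values were taken to log2. Of 45101 probe sets, 34958 had 1 symbol in the platform annotation, 932 several and 9211 were not listed; 34754 matched RefSeq (GRCm38.p6, names only). Each gene was read from its probe set with the highest mean, and genes brighter than the 40th percentile of all probe sets (log2 of 5.06) were tested. limma 3.58.1 (R 4.3.3) fitted 1 mean per group to the 15 samples, with 12 residual degrees of freedom. Its two-sided p-values were adjusted over the 13174 genes of a comparison (Benjamini-Hochberg, threshold 0.05). The fit was tested on simulated data. The number of arrays limits the precision.

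The 10 genes, the pathway lists and the tests were chosen with earlier results of these data known. Named genes were the 10, up to 5 called genes per list and comparison by smallest p, and the 3 genes most like each called member. Igf1r was chosen after its values were seen. Alternatives covered normalisation, centring, pseudocount, filter, probe set rule, samples, variance model and marker covariates.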

Additional observations from a re-analysis of the deposited data

Results flagged for a closer look

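In each group of 5, the highest and the lowest sample were set against the rest by Dixon's ratio of the gap to the range (critical value 0.71), over 30 combinations of gene and group. Chance marks about 1 group in 20, and 4 of the 30 were marked. Irs2 in FGF21 39 was 8.90, where the other FGF21 samples lay between 7.90 and 8.18. Irs2 in control 31 was 6.64, where the other controls lay between 7.18 and 7.30. Akt2 in control 34 was 10.87, where the other controls lay between 11.26 and 11.37. Irs1 in control 33 was 9.61, where the other controls lay between 9.83 and 9.89. No marked sample was an antibody sample.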

How the results depend on the processing

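The number of genes called with the antibody was 682 and changed to 419 with arrays centred on their median, 145 when centred on 45 ribosomal protein genes (77.2% higher, against 51.9%), 2307 with array quality weights, 1704 with the macrophage covariate and 1631 without control 34 and FGF21 36. Those called with FGF21 numbered 833, and 538, 179 (66.5% higher, against 41.8%), 2855, 1389 and 2138 in the same order, and 322 with only the 2 groups compared. Between the agents 49 genes passed, and 26, 9 (22.2% higher), 832 (56.5% higher, against 34.7%), 134 and 241 in that order, 79 with a pseudocount of 32, 77 with a stricter filter, 87 with only the 2 groups, 81 with an intensity trend and robust variances and 82 with the muscle covariate. Of the 10 genes, the antibody called 0 with ribosomal centring, beside 145 of all 13174, and 6 with weights, beside 2307. It called 4 with the macrophage covariate, beside 1704, and 4 without both arrays, beside 1631. FGF21 called 2 with ribosomal centring, beside 179, and 3 with only the 2 groups, beside 322. It called 7 with weights, beside 2855, 6 with the macrophage covariate, beside 1389, and 7 without both arrays, beside 2138. Between the agents, weights called 1 (Tbc1d4 0.32, adjusted p = 0.0181), beside 832.

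With ribosomal centring, where the median over genes shifted by at most 0.09, the antibody calls on Insr (0.45, adjusted p = 0.111) and Trarg1 (−0.84, adjusted p = 0.0629) and the FGF21 calls on Pik3r1 (−0.53, adjusted p = 0.101), Akt2 (−0.38, adjusted p = 0.382) and Tbc1d4 (−0.41, adjusted p = 0.0841) ended, while Irs2 and Trarg1 stayed called with FGF21. Insr also ended with the mean of all probe sets (0.22, adjusted p = 0.121), Pik3r1 with only the 2 groups (−0.54, adjusted p = 0.0879), and Akt2 with median centring (−0.41, adjusted p = 0.0768), the mean of all probe sets (−0.37, adjusted p = 0.0562) and the 2 groups alone (−0.39, adjusted p = 0.111). The cause was not tested. Of 30 member results, 27 kept 1 sign in all 28 alternatives, and no called value changed sign.

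Leaving out 1 array gave 336 to 1140 genes with the antibody, 463 to 2097 with FGF21 and 10 to 251 between the agents, with the highest count without control 34 each time. Members called ran from 2 to 4, 3 to 6 and 0 to 0. The differences ran from 0.34 to 0.38 for Insr and −1.09 to −0.86 for Trarg1 with the antibody, and with FGF21 from 0.93 to 1.18 for Irs2, −0.62 to −0.43 for Pik3r1, −0.48 to −0.35 for Akt2, −0.45 to −0.38 for Tbc1d4 and −1.38 to −1.14 for Trarg1. Without control 31, 32 or 33 the antibody count was 454, 365 or 408, and without antibody 41, 42, 43 or 44 it was 386, 336, 421 or 372. The FGF21 count was 555, 463 or 513 without control 31, 32 or 33 and 526 without FGF21 39. No paired analysis was possible because the replicate numbers, 31 to 45, do not repeat between groups.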
